A study of Homo sapiens with 5 samples.

Results

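Peaks in later introns are the called DNA regions that the authors' annotation places in an intron other than intron 1 of a transcript. They were chosen by that annotation alone, without use of peak strength, and peaks with the same interval within a list were merged. There were 17303 of them among 63391 merged peaks in 4 lists, on the genome build hg38. The lists came from A549, an established human lung adenocarcinoma line with an epithelial cell type label. FOXM1 chromatin immunoprecipitation (ChIP), with an antibody to the forkhead transcription factor FOXM1, gave 3231 later-intron peaks of 11195. LC3 ChIP, with an antibody to the ubiquitin-like LC3 proteins of autophagosome membranes, gave 1535 of 7801. Both used formaldehyde-fixed chromatin of cells labelled as untreated. DNA of extracellular vesicles (evDNA) from cells held for 3 days in EBSS, a balanced salt medium lacking serum and amino acids, gave 4174 of 15402. The evDNA of control cells, labelled as untreated, gave 8363 of 28993. Cells for evDNA grew without fetal bovine serum and those for ChIP with it, per the labels. No genetic change of the line is labelled in any group. An input library was not analysed here.

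Introns are the stretches of a gene that are transcribed and then spliced out of the RNA, and they make up most of the length of most human genes. The intron nearest the start of transcription is often the longest and tends to hold regulatory DNA close to the promoter. Later introns lie deeper in the gene, and the longest human genes, many of them encoding neuronal adhesion and synapse proteins or covering common fragile sites, are almost wholly intronic. FOXM1 acts in the nucleus at genes of cell division. LC3 is best known from autophagosomes in the cytoplasm, where it is joined to membrane lipid, and it is also found in the nucleus.

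Each group had 1 library, so no difference between lists could be tested against replicate error. Shares have exact 95% Clopper-Pearson intervals that cover counting error only, and depth, the antibody and the kind of DNA cannot be told apart between lists. The intervals treat peaks as independent, although peaks also clustered within genes and introns. Read totals are unknown. The recovered local background at later-intron peaks had a median of 1.08 fragments in FOXM1, 1.96 in LC3, 2.04 in EBSS evDNA and 1.99 in control evDNA. The median number of fragments stacked at the summit was 5 in FOXM1 and 8 in each of the other lists, so a single peak rests on few fragments. The fold, p and q of a peak are the authors' own values and describe peaks within a list.

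As examples, 3 stretches follow in which peaks of a pair of lists met inside a RefSeq promoter window, the only sequence of these regions used here. Few later-intron peaks met such a window, so the stretches do not stand for later introns in general. A window runs from 250 bases before to 50 bases after the start of a RefSeq gene (GRCh38.p14). The stretches are labelled by the host intron. The RefSeq gene of the window was LOC124906084 for KCNH7, LOC105375577 for LINC01287 and LOC107987240 for LINC02193. Each stretch is on the plus strand, capitals mark the bases covered by peaks of both lists, and lower case marks bases covered by 1 of them.
KCNH7 intron 5 of 14, EBSS evDNA and control evDNA, chr2:162490084-162490341: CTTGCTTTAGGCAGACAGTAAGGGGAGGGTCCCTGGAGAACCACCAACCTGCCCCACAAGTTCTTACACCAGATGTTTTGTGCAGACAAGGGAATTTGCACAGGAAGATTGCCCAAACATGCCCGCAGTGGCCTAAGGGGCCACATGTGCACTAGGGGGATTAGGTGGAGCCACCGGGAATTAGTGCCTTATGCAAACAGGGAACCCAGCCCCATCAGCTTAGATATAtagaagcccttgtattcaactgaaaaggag
LINC01287 intron 2 of 4, FOXM1 and LC3, chr7:153388937-153389209: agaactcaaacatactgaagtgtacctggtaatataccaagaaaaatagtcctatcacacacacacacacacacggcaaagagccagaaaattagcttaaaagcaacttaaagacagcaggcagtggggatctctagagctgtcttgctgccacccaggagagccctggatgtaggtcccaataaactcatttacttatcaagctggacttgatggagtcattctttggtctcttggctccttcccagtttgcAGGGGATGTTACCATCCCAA
LINC02193 intron 2 of 3, EBSS evDNA and control evDNA, chr16:90210320-90210596: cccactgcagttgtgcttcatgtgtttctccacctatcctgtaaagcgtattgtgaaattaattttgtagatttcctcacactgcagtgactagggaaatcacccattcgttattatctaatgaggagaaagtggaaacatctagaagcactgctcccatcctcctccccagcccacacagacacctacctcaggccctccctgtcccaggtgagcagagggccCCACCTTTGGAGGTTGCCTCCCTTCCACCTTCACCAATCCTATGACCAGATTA
In KCNH7, the gene of a voltage-gated potassium channel, 228 of the 258 bases were covered by both evDNA lists. In LINC01287, a long noncoding RNA gene, the FOXM1 and LC3 peaks had 20 of 273 bases of the window in common. In LINC02193, also noncoding, 53 of 277 bases were covered by both evDNA lists. The guanine and cytosine content was 51.6% in the KCNH7 stretch, 45.1% in LINC01287 and 49.5% in LINC02193, against a median of 58.7% over all 35116 windows. The motif TAAACA, the core of the forkhead motif, searched on both strands, was found in none of the 3 stretches and in 12.3% of all windows. In all, 17 windows were met by 20 of the 17303 later-intron peaks, and none of 1562 RefSeq miRNA hairpins was met.

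The first comparison was the share of each list that lay in later introns. Later introns held 28.9% (28.0 to 29.7%) of FOXM1 peaks, 19.7% (18.8 to 20.6%) of LC3 peaks, 27.1% (26.4 to 27.8%) of EBSS evDNA peaks and 28.8% (28.3 to 29.4%) of control evDNA peaks. LC3 was the low list, and its interval met none of the others. Among peaks with q of at most 0.05, later introns held 9.05% (5.62 to 13.6%) in FOXM1, 8.14% (5.28 to 11.9%) in LC3, 16.1% (14.3 to 18.0%) in EBSS evDNA and 24.1% (22.8 to 25.5%) in control evDNA, so LC3 was then not apart from FOXM1. In the whole LC3 list 38.1% of peaks were annotated to promoters, against 13.4% in FOXM1, 19.1% in EBSS evDNA and 17.8% in control evDNA. First introns differed less between lists, at 10.5% in FOXM1, 9.41% in LC3 and 10.9% in both evDNA lists. Among intronic peaks alone, the later introns took 73.3% (72.0 to 74.6%) in FOXM1, 67.7% (65.7 to 69.6%) in LC3, 71.3% (70.1 to 72.5%) in EBSS evDNA and 72.6% (71.8 to 73.4%) in control evDNA. If every intron of the annotated transcripts counted alike, these shares would be 80.5 to 80.9%. Intron lengths were not used here, so this value does not allow for the greater length of first introns.

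**Figure D1:**
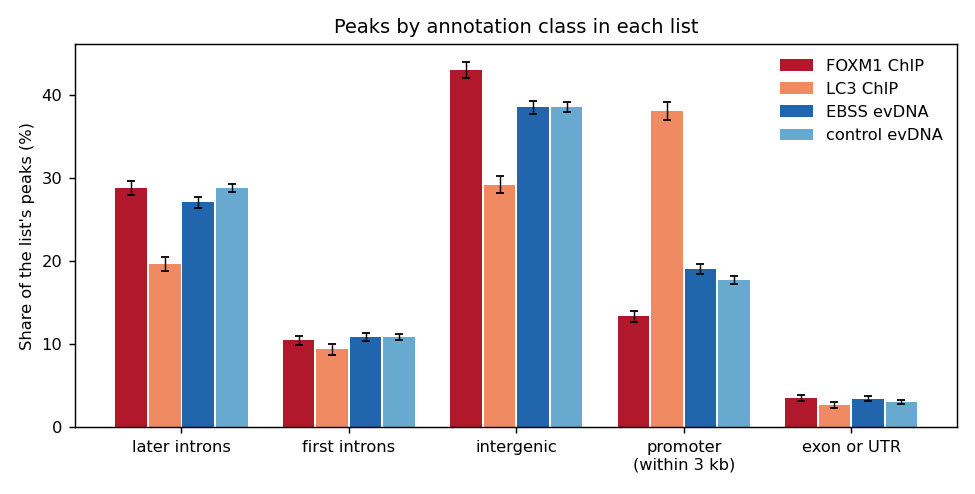
Share of each list's merged peaks (%) by annotation class, for FOXM1 ChIP, LC3 ChIP, EBSS evDNA and control evDNA, with exact 95% intervals as error bars. Later introns hold 19.7% of LC3 peaks and 27.1 to 28.9% of the other lists, while 38.1% of LC3 peaks are annotated to promoters.

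The next comparison was where along the intron order the peaks lay. The median intron number was 4 in every list, and the median transcript had 9 introns in FOXM1 and 10 in the others. Intron number divided by the total had a mean of 0.581 in FOXM1, 0.571 in LC3, 0.578 in EBSS evDNA and 0.573 in control evDNA. With equal weight for each later intron the means would be 0.650 in FOXM1, 0.645 in LC3, 0.645 in EBSS evDNA and 0.650 in control evDNA. The observed peaks thus sat earlier in the intron order than with equal weight in all 4 lists. Intron lengths were not used, so this comparison does not allow for differences in length between early and late introns. Intron 2 alone held 28.8% (27.3 to 30.4%) of later-intron peaks in FOXM1, 30.0% (27.7 to 32.3%) in LC3, 28.5% (27.1 to 29.9%) in EBSS evDNA and 29.4% (28.5 to 30.4%) in control evDNA, against 20.1 to 21.1% with equal weight. The last intron held 18.0% in FOXM1, 18.2% in LC3, 18.4% in EBSS evDNA and 17.9% in control evDNA, against 20.1 to 21.1% with equal weight. Peaks past the middle of the order (a ratio above 0.5) were 55.5% (53.8 to 57.2%) in FOXM1, 52.9% (50.4 to 55.4%) in LC3, 53.5% (52.0 to 55.0%) in EBSS evDNA and 53.4% (52.3 to 54.5%) in control evDNA. These intervals overlapped. In transcripts with at least 10 introns the share past the middle was 42.4% in FOXM1, 39.9% in LC3, 40.3% in EBSS evDNA and 39.5% in control evDNA.

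**Figure D2:**
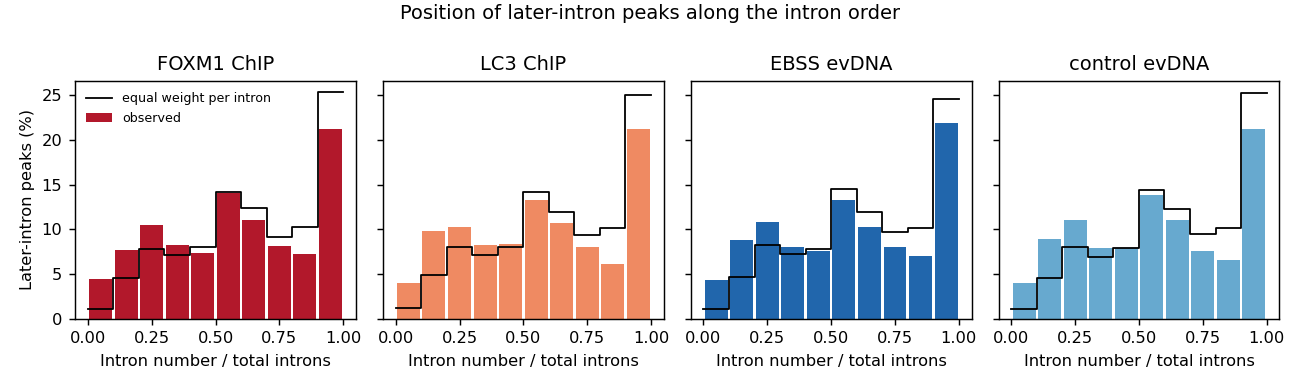
Share of later-intron peaks (%) in 10 bins of intron number divided by total introns, 1 panel per list; the black line gives the share with equal weight for each later intron. In every list the bars lie above the line in the lowest bins and below it in the highest. The line does not allow for intron length.

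The position was also taken in bases along the gene. For peaks inside the RefSeq span of their host gene, the median lay at 57.9% of the way from start to end in FOXM1 (n = 2291), 61.6% in LC3 (n = 1100), 57.0% in EBSS evDNA (n = 3079) and 56.0% in control evDNA (n = 6025). When the span was cut in 3 equal pieces, the piece nearest the start held 20.6 to 23.9% of the peaks. The piece nearest the end held 39.1% in FOXM1, 41.8% in LC3, 38.5% in EBSS evDNA and 36.4% in control evDNA. Later introns cannot begin at the start of a gene, so a low share there follows from the definition. The deepest intron reached was intron 87 of 90 of LRP1B in FOXM1, a large endocytic receptor gene, and intron 78 of 78 of DNAH5 in LC3, a gene of the dynein motor of cilia. EBSS evDNA and control evDNA each reached intron 101 of 104 of RYR2, the calcium release channel of heart muscle. EBSS evDNA also reached intron 118 of 137 of NBPF20, and control evDNA intron 109 of 137. NBPF20 is a member of a gene family of near-identical copies, where the assignment of reads is uncertain.

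The authors' peak values set later-intron peaks beside the other peaks of the same list. The median fold over background of later-intron peaks was 2.89 in FOXM1, 3.01 in LC3, 2.79 in EBSS evDNA and 2.84 in control evDNA. Over all peaks it was 2.89 in FOXM1, 3.02 in LC3, 2.79 in EBSS evDNA and 2.84 in control evDNA, so later-intron peaks did not stand apart by their median. A q of at most 0.05 was reached by 20 later-intron peaks in FOXM1 (0.619%), where 1.97% of all FOXM1 peaks did. It was reached by 24 in LC3 (1.56%), where 3.78% of all peaks did. In EBSS evDNA it was reached by 242 (5.80%), with 9.77% of all peaks, and in control evDNA by 928 (11.1%), with 13.3% of all peaks. The later-intron share was below that of the whole list each time. Its interval did not meet that of all other peaks in FOXM1 (0.379 to 0.954% against 2.19 to 2.89%), in LC3 (1.00 to 2.32% against 3.83 to 4.86%), in EBSS evDNA (5.11 to 6.55% against 10.7 to 11.8%) or in control evDNA (10.4 to 11.8% against 13.7 to 14.6%). First introns were also low, at 0.852% in FOXM1, 0.817% in LC3, 5.60% in EBSS evDNA and 10.6% in control evDNA. A local background of 10 fragments or more was found at 0 later-intron peaks in FOXM1 and LC3, 9 in EBSS evDNA and 17 in control evDNA.

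A few later-intron peaks stood out by fold. The highest FOXM1 peak lay in intron 8 of 21 of TBC1D5, which encodes a Rab GTPase-activating protein of the retromer and autophagy pathways, at chr3:17401795-17402425. It had a fold of 24.5, 50 fragments and a −log10 q of 59.2. An EBSS evDNA peak lay within it, from 17402009 to 17402289, with a fold of 3.84 and 10 fragments, and neither LC3 nor control evDNA had a peak there. The other FOXM1 peaks among the 5 highest were in intron 3 of 4 of MAP4K4, a kinase gene (fold 7.03, 19 fragments), intron 2 of 17 of ADCY8, an adenylyl cyclase gene (6.06, 13 fragments), intron 14 of 20 of SLF1, a DNA repair gene (5.72, 12 fragments), and intron 3 of 3 of PRR5L, whose protein binds mTORC2 (5.52, 11 fragments). None of those 4 was overlapped by another list.

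The highest LC3 peaks were lower. The first was in intron 60 of 78 of DNAH5 (chr5:13761027-13761526) with a fold of 5.31 and 13 fragments. Peaks in NPAS3, SNTN and AC004889.1, also among the 5 highest, each had a fold of 4.55 and 11 fragments. A control evDNA peak of fold 2.44 and 6 fragments overlapped that in AC004889.1.

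Each of the 5 later-intron peaks of highest fold in either evDNA list was overlapped by a peak of the other. Intron 2 of 6 of ENSG00000278996 on the short arm of chromosome 21 (chr21:8219633-8220305 in EBSS evDNA) had a fold of 17.8 and 123 fragments in EBSS evDNA and 16.2 and 142 fragments in control evDNA. Intron 2 of 6 of ENSG00000280441 on the same arm had 8.03 with 22 fragments in EBSS evDNA and 18.1 with 51 fragments in control evDNA. That arm is known for repeated copies, so reads there cannot be assigned to 1 copy with certainty. Intron 2 of 2 of MAMDC2-AS1 had 9.33 in EBSS evDNA and 10.2 in control evDNA, and intron 3 of 47 of CACNA1C, the L-type calcium channel gene, had 7.60 in EBSS evDNA and 7.72 in control evDNA. In intron 21 of 23 of CNTNAP2, a neurexin family gene, the folds were 7.82 in EBSS evDNA and 5.60 in control evDNA. Folds from separate lists are given side by side, and a change between them could not be tested.

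The following comparison was of host genes, the genes whose introns held the peaks. There were 1804 host genes in FOXM1, 1071 in LC3, 2533 in EBSS evDNA and 3672 in control evDNA, and 5490 in any list. Among 20037 RefSeq protein-coding genes, 5.54% hosted a later-intron peak in FOXM1, 3.41% in LC3, 8.25% in EBSS evDNA and 11.6% in control evDNA. Most hosts had a single peak: 69.1% in FOXM1, 76.0% in LC3, 69.3% in EBSS evDNA and 58.0% in control evDNA. The largest number in 1 gene was 28 in FOXM1, 13 in LC3, 31 in EBSS evDNA and 65 in control evDNA. Peaks were also stacked within single introns. An intron with at least 2 peaks held 36.4% of the FOXM1, 21.8% of the LC3, 30.1% of the EBSS evDNA and 47.1% of the control evDNA later-intron peaks.

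FOXM1 had its highest counts in long genes of neuronal adhesion. PTPRD, which encodes a receptor tyrosine phosphatase of synapses, held 28 FOXM1 peaks (exact Poisson 95% interval 18.6 to 40.5), against 1 in LC3, 1 in EBSS evDNA and 1 in control evDNA (0.0253 to 5.57 each). Per 1000 later-intron peaks of the list these were 8.67 in FOXM1, 0.651 in LC3, 0.240 in EBSS evDNA and 0.120 in control evDNA. The FOXM1 list was high and the other 3 low. PTPRD was named for its FOXM1 count, so the contrast with the other lists partly follows from that choice. Over the whole span of PTPRD (chr9:8314246-10613002), peaks of any class numbered 32 in FOXM1, 2 in LC3, 1 in EBSS evDNA and 1 in control evDNA. The chromosome as a whole did not stand apart in this way, with 4.33% of later-intron peaks in FOXM1, 4.69% in LC3, 3.62% in EBSS evDNA and 2.97% in control evDNA. The number of copies of PTPRD in these cells was not measured here.

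ROBO2, the gene of a receptor for SLIT guidance cues, held 22 FOXM1 peaks, 1 LC3 peak, 9 EBSS evDNA peaks and 17 control evDNA peaks. Of the FOXM1 peaks there, 19 lay in intron 2 of 26. LRRTM4, whose protein organises excitatory synapses, held 17 in FOXM1, all in intron 2 of 2, against 1 in LC3, 4 in EBSS evDNA and 5 in control evDNA. CNTNAP2 held 21 in FOXM1, 1 in LC3, 14 in EBSS evDNA and 19 in control evDNA. NRXN3, a presynaptic neurexin gene, held 15 in FOXM1, 3 in LC3, 7 in EBSS evDNA and 15 in control evDNA. Other genes among the FOXM1 leaders were MACROD2, an ADP-ribose hydrolase gene (17 peaks), DLG2, a synaptic scaffold gene (14), LINC02055 (14) and CTNNA2, a neuronal alpha-catenin gene (13). Control evDNA had 12 to 33 peaks in each of these 4. Of the 61 LINC02055 later-intron peaks of all 4 lists, 20 lay inside its RefSeq span.

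LC3 had other leading genes, apart from MACROD2, which held 8 LC3 peaks. PTPRN2, which encodes a phosphatase-like protein of dense-core vesicles, held 13 LC3 peaks (6.92 to 22.2), against 1 in FOXM1, 6 in EBSS evDNA and 8 in control evDNA. ADAMTS17, a secreted metalloprotease gene, held 10 in LC3 (4.80 to 18.4), against 1 in FOXM1, 2 in EBSS evDNA and 2 in control evDNA. Per 1000 later-intron peaks these 10 were 6.51, against 0.310 in FOXM1, 0.479 in EBSS evDNA and 0.239 in control evDNA. ALK, a receptor tyrosine kinase gene, held 8 in LC3, 3 in FOXM1, 2 in EBSS evDNA and 1 in control evDNA. ANO2, a calcium-activated chloride channel gene, held 8 in LC3, 0 in FOXM1, 2 in EBSS evDNA and 3 in control evDNA. DLGAP2, a synaptic scaffold gene, and TENM2, a teneurin gene, held 9 each in LC3, and DPP6, a subunit gene of potassium channels, and NPAS3, a neuronal transcription factor gene, held 7 each. With so few peaks in a gene, the intervals are wide. These genes were named for their LC3 counts, so contrasts with the other lists partly follow from that choice. The intervals do not allow for it.

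CDH18, a type II cadherin gene on chromosome 5, held the most later-intron peaks in both evDNA lists. CDH18 held 31 peaks in EBSS evDNA and 65 in control evDNA, against 7 in FOXM1 and 0 in LC3. Like the genes that follow, CDH18 was named for its evDNA counts, so contrasts with the ChIP lists partly follow from that choice. Per 1000 later-intron peaks CDH18 had 7.43 in EBSS evDNA and 7.77 in control evDNA, and 2.17 in FOXM1. Its intron 2 of 14 alone held 9 EBSS evDNA peaks and 26 control evDNA peaks. In EBSS evDNA it was followed by ENSG00000231918 on chromosome 2 with 17, CNTNAP2 with 14 and ENSG00000215912 on chromosome 1 with 13. CDH12, a second type II cadherin gene, held 12 in EBSS evDNA and 42 in control evDNA, against 8 in FOXM1 and 0 in LC3. CTNND2, the delta-catenin gene, held 10 in EBSS evDNA and 31 in control evDNA. The noncoding LINC02241 held 7 in EBSS evDNA and 25 in control evDNA, and WDR70 held 4 in EBSS evDNA and 24 in control evDNA. CDH18, CDH12, CTNND2, LINC02241 and WDR70 all lie on chromosome 5. Others were DAB1, an adaptor of reelin signalling, with 11 in EBSS evDNA and 19 in control evDNA, SOX5, a transcription factor gene, with 11 in EBSS evDNA and 20 in control evDNA, and CCDC26, a noncoding RNA gene, with 10 in EBSS evDNA and 24 in control evDNA. Of the 38 CCDC26 later-intron peaks of all 4 lists, 2 lay inside its RefSeq span. CDH13, a cadherin gene on chromosome 16, had the reverse order of counts, with 12 in EBSS evDNA and 6 in control evDNA. The control evDNA list was the longer, with 8363 later-intron peaks against 4174. Per 1000 of these, CDH13 had 2.87 in EBSS evDNA and 0.717 in control evDNA. By that measure CNTNAP2, DAB1, SOX5, ENSG00000231918 and ENSG00000215912 were also higher in EBSS evDNA. CDH18, CDH12, CTNND2, LINC02241, WDR70 and CCDC26 were higher in control evDNA.

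**Figure D3:**
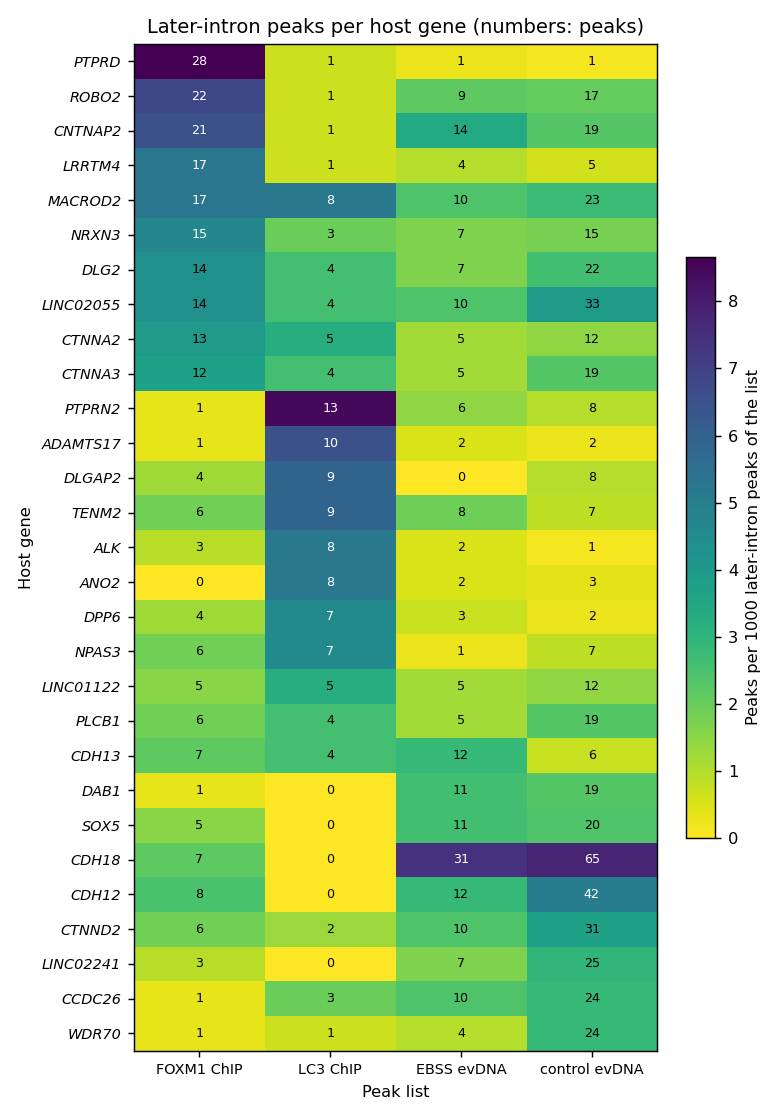
Later-intron peaks in leading host genes (rows) in the 4 lists (columns). Colour gives peaks per 1000 later-intron peaks of the list and the printed number is the count; PTPRD reaches 28 in FOXM1 and 1 in each other list, and CDH18 reaches 31 in EBSS evDNA and 65 in control evDNA with 0 in LC3.

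Counts grow with gene length, so the number of peaks inside the RefSeq span was also given per 100 kb, for genes with at least 5 such peaks in a list. SOBP led in FOXM1 with 2.92 per 100 kb, ahead of LRRTM4 with 2.19, and then MCTP2, NUBPL and BBS9 with 1.58 to 1.98. ADAMTS17 led in LC3 with 2.70, followed by ANO2 with 2.09, SLC25A48 with 1.94, SLC24A3 with 1.37 and PLXNA4, a semaphorin receptor gene, with 1.33. In the evDNA lists BAGE2 led with 7.64 in EBSS evDNA and 12.4 in control evDNA, and it is a pseudogene of a family of near-identical copies near a centromere. The other control evDNA leaders were GUSBP1 with 10.8, also a gene of a copied family, and on the same chromosome 5 LINC02223 with 8.12, LINC02241 with 7.67 and C5orf17 with 7.49. In EBSS evDNA BAGE2 was followed by PIGK, which encodes an enzyme that attaches GPI anchors, with 4.60, and then by LINC02223, RNF180 and CDH18. The PIGK value rests on 6 EBSS evDNA peaks (2.20 to 13.1). In control evDNA PIGK had 1.53, from 2 peaks (0.242 to 7.22). These intervals overlapped, and PIGK was named for its EBSS evDNA value.

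The length of the host genes differed between the lists. Genes of 500 kb or more make up 20.3% of all protein-coding gene length. Among later-intron peaks in protein-coding hosts, they held 42.5% (40.4 to 44.7%) in FOXM1, 32.1% (29.3 to 35.1%) in LC3, 28.4% (26.8 to 30.1%) in EBSS evDNA and 26.9% (25.8 to 28.1%) in control evDNA. FOXM1 was the high list, and its interval met none of the others. These intervals treat peaks as independent, while 36.4% of FOXM1 later-intron peaks lay in introns with at least 2 peaks. They may therefore be too narrow, and the difference between lists was not tested. Genes under 100 kb, with 33.6% of gene length, held 12.4% in FOXM1, 17.4% in LC3, 19.8% in EBSS evDNA and 17.7% in control evDNA. First-intron peaks gave 40% in genes of 500 kb or more in FOXM1, 22.1% in LC3, 21.0% in EBSS evDNA and 26.2% in control evDNA, so the difference between later and first introns was larger in LC3 and EBSS evDNA than in FOXM1 and control evDNA. That difference was not tested.

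**Figure D4:**
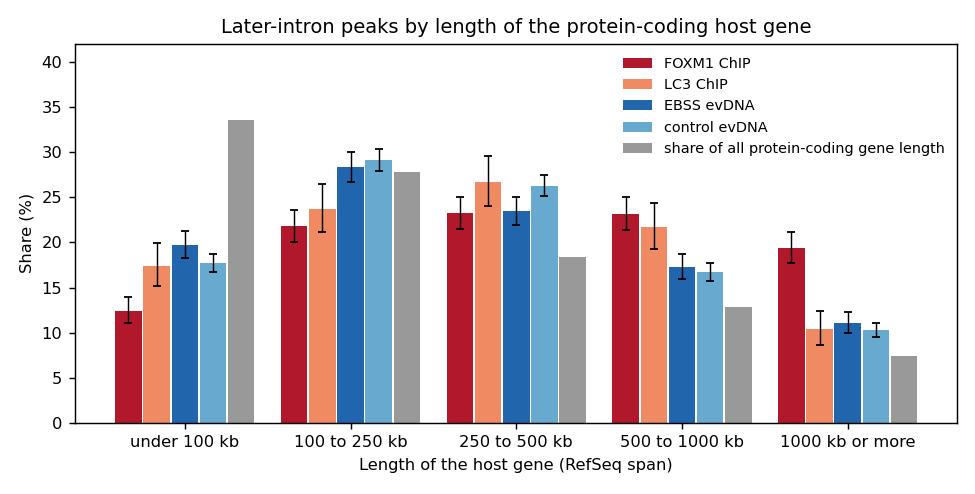
Share (%) of later-intron peaks in protein-coding host genes by the RefSeq length of the gene, with exact 95% intervals, beside the share of all protein-coding gene length (grey). Genes of 1000 kb or more hold 19.4% of the FOXM1 peaks and 10.3 to 11.1% of the others, with 7.39% of gene length.

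Long genes also returned across lists. Of the 5490 host genes, 3126 appeared in 1 list (median length 74.8 kb), 1416 in 2 lists (148 kb), 670 in 3 lists (263 kb) and 278 in all 4 (468 kb). The number in all 4 was 125 with each list cut to its 7801 strongest peaks, 180 with the authors' nearest gene as host and 0 with q of at most 0.05. The 278 genes were 15.4% of FOXM1 hosts, 26% of LC3 hosts, 11% of EBSS evDNA hosts and 7.57% of control evDNA hosts. They held 30.3% of the later-intron peaks in FOXM1, 34.9% in LC3, 20.8% in EBSS evDNA and 19.7% in control evDNA. Among protein-coding genes, 0.958% were hosts in all 4 lists, and among the 315 protein-coding genes of 500 kb or more, 30.2% were. The genes with the highest smallest count were led by MACROD2, with 17 in FOXM1, 8 in LC3, 10 in EBSS evDNA and 23 in control evDNA. TENM2 held 6 in FOXM1, 9 in LC3, 8 in EBSS evDNA and 7 in control evDNA. CTNNA2, LINC01122, LINC02055, CTNNA3, PLCB1, a phospholipase gene, DLG2, CDH13 and ENSG00000283563 had at least 4 in each list.

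The gene lists were read against those background shares. These gene lists were chosen with earlier results of these data known, so high shares may partly follow from that choice. Of 20 common fragile site genes, with a median length of 1375 kb, 19 hosted later-intron peaks in FOXM1 (95%), 10 in LC3 (50%), 14 in EBSS evDNA (70%) and 18 in control evDNA (90%). Among all protein-coding genes of 500 kb or more, the shares were 70.5% in FOXM1, 45.4% in LC3, 67.9% in EBSS evDNA and 77.8% in control evDNA. Of those 315 genes, 246 are of 500 to 1000 kb, so this background is not matched for the length of the fragile site genes. The 7 fragile site genes in all 4 lists were CNTNAP2, CSMD1, CSMD3, CTNNA3, DLG2, MACROD2 and WWOX. Of 24 neuronal adhesion and synapse genes, with a median length of 897 kb, 20 were hosts in FOXM1 (83.3%), 13 in LC3 (54.2%), 19 in EBSS evDNA (79.2%) and 21 in control evDNA (87.5%). PTPRT, another receptor phosphatase gene of that group, held 7 in FOXM1, 2 in LC3, 8 in EBSS evDNA and 13 in control evDNA. Of 20 axon guidance genes, with a median length of 488 kb, 12 were hosts in FOXM1 (60%), 8 in LC3 (40%), 9 in EBSS evDNA (45%) and 12 in control evDNA (60%). ROBO1, the other receptor gene for SLIT cues in the list, held 10 in FOXM1, 1 in LC3, 8 in EBSS evDNA and 1 in control evDNA. EPHA6, an ephrin receptor gene, held 5 in FOXM1, 2 in LC3, 6 in EBSS evDNA and 14 in control evDNA.

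Of 23 ion channel and neurotransmitter receptor genes, with a median length of 555 kb, 15 were hosts in FOXM1 (65.2%), 11 in LC3 (47.8%), 11 in EBSS evDNA (47.8%) and 15 in control evDNA (65.2%). For all protein-coding genes of 500 kb or more the shares were 70.5% in FOXM1, 45.4% in LC3, 67.9% in EBSS evDNA and 77.8% in control evDNA, so this group was near or below them. The glutamate receptor gene GRM7 held 12 FOXM1 peaks, 1 in LC3, 4 in EBSS evDNA and 4 in control evDNA. Its relative GRM8 held 6 in FOXM1, 2 in LC3, 5 in EBSS evDNA and 9 in control evDNA, while CACNA1C held 0 in FOXM1, 6 in LC3, 4 in EBSS evDNA and 6 in control evDNA. Of 19 cadherin genes, with a median length of 389 kb, 9 were hosts in FOXM1 (47.4%), 3 in LC3 (15.8%; CDH13, CDH4 and PCDH15), 11 in EBSS evDNA (57.9%) and 13 in control evDNA (68.4%). Of 18 genes of cAMP breakdown and small GTPase control, with a median length of 493 kb, 10 were hosts in FOXM1 (55.6%), 7 in LC3 (38.9%), 10 in EBSS evDNA (55.6%) and 14 in control evDNA (77.8%). Over protein-coding genes of any length the shares were 5.54% in FOXM1, 3.41% in LC3, 8.25% in EBSS evDNA and 11.6% in control evDNA, and no background share was computed for genes of these lengths. PDE4D, a phosphodiesterase gene, held 5 in FOXM1, 3 in LC3, 7 in EBSS evDNA and 7 in control evDNA.

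The last 3 groups hold shorter genes, and their shares stand beside those of all protein-coding genes, 5.54% in FOXM1, 3.41% in LC3, 8.25% in EBSS evDNA and 11.6% in control evDNA. These shares are not matched for length, and no background share was computed for genes of these lengths. Listed genes that the files do not name count as no host. The files name 12 of the 26 G2/M and FOXM1 target genes, 17 of the 30 autophagy and lysosome genes and 13 of the 20 lung genes. The counts of hosts may therefore be too low. Of 26 G2/M cell cycle genes and FOXM1 targets, with a median length of 25.4 kb, 0 hosted a later-intron peak in FOXM1 and in LC3, 1 in EBSS evDNA (ANLN) and 2 in control evDNA (ECT2 and TOP2A). No later-intron peak in any list had FOXM1 itself, MAP1LC3A, MAP1LC3B or MAP1LC3C as its named host. Of 30 autophagy and lysosome genes, with a median length of 44.7 kb, 7 were hosts in FOXM1 (23.3%), 2 in LC3 (6.67%), 9 in EBSS evDNA (30%) and 9 in control evDNA (30%). ATG7 and ATG10, which encode enzymes of the ATG12 and LC3 conjugation systems, were hosts in all 4. TBC1D5 held 5 peaks in FOXM1, 0 in LC3, 7 in EBSS evDNA and 6 in control evDNA, and UVRAG, a gene of endosome and autophagosome maturation, held 3 in FOXM1, 0 in LC3, 4 in EBSS evDNA and 5 in control evDNA. Of 20 lung and lung adenocarcinoma genes, with a median length of 52.8 kb, 2 were hosts in FOXM1 (10%), 3 in LC3 (15%), 4 in EBSS evDNA (20%) and 4 in control evDNA (20%), with ALK in all 4. Several hosts in these groups were far longer than the group median, such as UVRAG (329 kb), ATG7 (304 kb) and ALK (729 kb).

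The last comparison was recurrence, an overlap of at least 1 bp with a peak of another list. Any other list was met by 2.54% (2.02 to 3.14%) of later-intron peaks in FOXM1, 5.15% (4.10 to 6.37%) in LC3, 9.22% in EBSS evDNA and 5.01% in control evDNA. For first introns the shares were 2.30% in FOXM1, 3.00% in LC3, 7.20% in EBSS evDNA and 4.49% in control evDNA. For intergenic peaks they were 4.54% in FOXM1, 8.15% in LC3, 17.7% in EBSS evDNA and 9.97% in control evDNA. Later-intron peaks recurred less than intergenic peaks in each list. A longer list is met more often, so shares between pairs of lists also depend on list length.

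Of FOXM1 later-intron peaks, 23 (0.712%, 0.452 to 1.07%) met an LC3 peak, 20 (0.619%) an EBSS evDNA peak and 42 (1.30%, 0.938 to 1.75%) a control evDNA peak. Of LC3 later-intron peaks, 23 (1.5%) met FOXM1, 22 (1.43%) EBSS evDNA and 42 (2.74%, 1.98 to 3.68%) control evDNA. The evDNA lists met each other most, with 355 EBSS evDNA peaks (8.51%, 7.68 to 9.39%) overlapped by control evDNA. In intergenic DNA that share was 16.6%, and in first introns it was 6.90%. With each list cut to its 7801 strongest peaks, control evDNA was met by 0.359% (0.155 to 0.706%) of FOXM1 later-intron peaks. It was met by 0.977% of LC3 and 6.0% of EBSS evDNA later-intron peaks. LC3 was then met by 0.763% (0.445 to 1.22%) of FOXM1 later-intron peaks. For FOXM1 the share with control evDNA was thus no longer the higher, and the intervals overlapped. With a required overlap of 50% of the shorter peak, 0.402% of FOXM1 peaks met LC3. With q of at most 0.05 in both lists, 21.1% of EBSS evDNA peaks met control evDNA. The 5 FOXM1 and LC3 overlaps of highest smaller fold were in VPS41, a lysosome tethering gene, in intron 4 of 9 of ENSG00000173421, where RefSeq places IHO1, and in CTNND2, CELF2, an RNA-binding protein gene, and ADAM18. In VPS41 the fold was 3.85 with 7 fragments in FOXM1 and 3.95 with 10 fragments in LC3. None of the 20 FOXM1 and none of the 24 LC3 later-intron peaks with q of at most 0.05 met a peak of the other list, which allows shares of up to 16.8% and 14.2% by the exact interval.

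**Figure D5:**
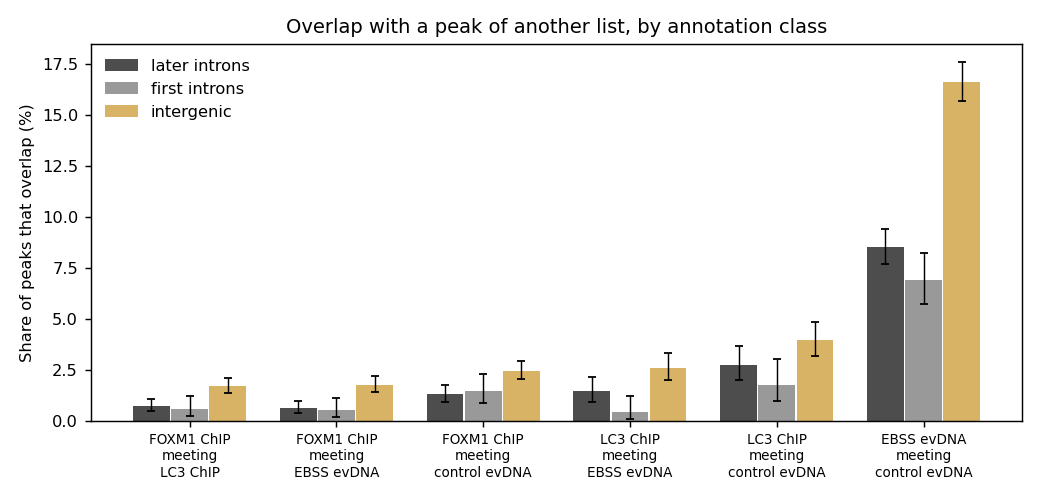
Share (%) of the peaks of the list named first that overlap a peak of the list named last by at least 1 bp, for later introns, first introns and intergenic DNA, with exact 95% intervals. In later introns 8.51% of EBSS evDNA peaks meet control evDNA, and 0.712% of FOXM1 peaks meet LC3.

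Lists shared host genes far more often than places. The median host gene was 116 kb long, and the median later-intron peak was 295 to 330 bp wide depending on the list. More sharing of genes than of places thus follows from their sizes. No expected share of common host genes was computed. FOXM1 and LC3 had 474 host genes in common, 26.3% of the FOXM1 hosts and 44.3% of the LC3 hosts. Of the 1335 FOXM1 later-intron peaks in those genes, 23 (1.72%) overlapped an LC3 peak. EBSS evDNA and control evDNA had 1539 host genes in common, 60.8% of the EBSS evDNA hosts and 41.9% of the control evDNA hosts, and 351 of 3048 EBSS evDNA peaks there (11.5%) overlapped a control evDNA peak. PTPRD, ROBO2 and CNTNAP2 illustrate shared genes whose counts differed between the lists.

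No later-intron place had peaks of all 4 lists, while 10 of 4822 intergenic FOXM1 peaks (0.207%) met all the other lists. For the 3231 FOXM1 later-intron peaks the exact interval allows up to 0.114%. No first-intron peak of any list met all the other lists either, so this was not particular to later introns. Peaks of 3 lists met at 12 later-intron places. In intron 2 of 14 of CDH18, peaks of FOXM1 (6 fragments), EBSS evDNA (10) and control evDNA (8) overlapped. In intron 23 of 34 of SPEF2, a sperm flagellum gene, peaks of LC3 (7 fragments), EBSS evDNA (10) and control evDNA (12) overlapped. Among those with the highest folds was MROH5 intron 3 of 27 with 14 fragments in LC3, 42 in EBSS evDNA and 52 in control evDNA, over backgrounds of 6.84 fragments in LC3, 6.47 in EBSS evDNA and 6.76 in control evDNA. WASHC2A and ZNF717 were further hosts, and WASHC2A has a near-identical copy elsewhere in the genome. In DLG2 the FOXM1 peak, and in DNAH5 the EBSS evDNA peak, overlapped both other peaks, which did not touch each other. Other hosts were LINC01606, AL589182.1, DNAH14 and AC136759.1.

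The chromosomes were unevenly represented. Chromosome 5, with 5.52% of protein-coding gene length, held 9.32% (8.34 to 10.4%) of FOXM1, 8.93% (7.55 to 10.5%) of LC3, 11.5% (10.5 to 12.5%) of EBSS evDNA and 13.4% (12.7 to 14.2%) of control evDNA later-intron peaks. Of first-intron peaks it held 11.3% in FOXM1, 9.95% in LC3, 12.7% in EBSS evDNA and 16.2% in control evDNA, so the high share was not limited to later introns. LC3 was low on chromosomes 4 and 6, with 13 later-intron peaks each (0.847%), which hold 5.55% and 5.62% of protein-coding gene length. On chromosome 4 the share was 3.40% in FOXM1, 1.75% in EBSS evDNA and 1.70% in control evDNA, and on chromosome 6 it was 3.00% in FOXM1, 2.52% in EBSS evDNA and 2.39% in control evDNA. LC3 was high on chromosome 15, with 7.17% (5.93 to 8.57%), against 3.10% in FOXM1, 2.23% in EBSS evDNA and 2.02% in control evDNA. ADAMTS17 lies on that chromosome and held 10 of its 110 LC3 later-intron peaks. First-intron LC3 peaks had shares of 7.22% on chromosome 15, 0.817% on chromosome 4 and 1.499% on chromosome 6. The high and low LC3 shares were thus also not limited to later introns. The number of copies of each chromosome in these cells was not measured, and its part in the results was not tested.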

How the data were processed

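The data were 4 narrow peak lists, with 1 library per group, grouped by the antibody and treatment labels; the labelled input was not used here. The submitters' processing notes name MACS3 3.0.0a6 and ChIPseeker for hg38, beside BWA, FastQC 0.11.8 and fastp 0.20.0. Which control the peak caller used, and how reads with several matches were treated, are not given in the sources used here. The authors deposited a fold, a ratio of signal to local background, for each peak. The authors also deposited a −log10 p and a −log10 q; the lists end at a p of 0.005. The deposited score of each peak was not used.

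Rows with the same interval were merged to the strongest summit. Pileup and background were recovered from the fold and the Poisson −log10 p (100% of intervals within 0.01) and tested on simulated data. The host gene is that of the transcript named in the annotation; 88.9% to 90.5% of later-intron peaks had a host with a symbol, and the rest keep an ID. Listed genes that the files do not name count as no host. RefSeq GRCh38.p14 spans matched by symbol or synonym cover 75.7% to 77.8% of peaks. Where the listed transcripts are longer than the RefSeq span, host length is the longer one, and the host lengths by number of lists rest on 81.8% to 94.6% of genes. Length classes use the RefSeq span.

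No test between groups was possible. Named host genes are the 10 with most peaks per list, the 10 with the highest smallest count, the 5 densest per list and up to 4 per gene list; named peaks are the 5 of highest fold per list, up to 10 in 3 lists and the 5 strongest overlaps of FOXM1 with LC3 and of both evDNA lists. The peaks, genes and gene lists were chosen with earlier results of these data known. DNAH14 and AC136759.1, the places in 3 lists beyond the 10, and the hosts of the highest introns are named outside the rule, after their values were seen. The sequences shown were also chosen after the data were seen. Some genes that the rule names are not reported here. The alternatives were q of at most 0.05, equal list lengths, a 50% overlap, at least 10 introns, the nearest gene as host, no merging, and no peaks over a background of 10 fragments. Tools were Python 3.11.15, pandas 2.3.3, numpy 2.4.6, scipy 1.17.1 and matplotlib 3.10.9.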

Additional observations from a re-analysis of the deposited data

How the results depend on the processing

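Of 43 values recomputed under 7 alternatives, 17 stayed within the 95% interval of the reported value (counts within 1.5 times) and 26 moved. Leaving out high-background peaks and not merging rows moved none of the 8 and 4 values computed. With q of at most 0.05, later introns held 9.05% of FOXM1, 8.14% of LC3, 16.1% of EBSS evDNA and 24.1% of control evDNA peaks. With that limit on both lists, 0 of 20 FOXM1 peaks met LC3 (0%) and 0 of 20 met control evDNA (0%), 1 of 24 LC3 peaks met control evDNA (4.17%) and 21.1% of EBSS evDNA peaks met control evDNA. The shares past the middle of the intron order were 45% in FOXM1, 58.3% in LC3, 56.6% in EBSS evDNA and 55.8% in control evDNA, the FOXM1 and LC3 values resting on 20 and 24 peaks, and 0 host genes were in all 4 lists. With each list cut to its 7801 strongest peaks, later introns held 25.8% of EBSS evDNA and 27.1% of control evDNA peaks. Control evDNA was then met by 0.359% of FOXM1, 0.977% of LC3 and 6.0% of EBSS evDNA later-intron peaks. LC3 was met by 0.763% of FOXM1 later-intron peaks, and 125 host genes were in all 4 lists. An overlap of 50% of the shorter peak left 0.402% of FOXM1 peaks meeting LC3 and 6.44% of EBSS evDNA peaks meeting control evDNA. In transcripts with at least 10 introns the shares past the middle were 42.4% in FOXM1, 39.9% in LC3, 40.3% in EBSS evDNA and 39.5% in control evDNA; short transcripts, where intron 2 can be the last, are then left out. With the authors' nearest gene as host, 180 genes were in all 4 lists. The cause of the other moves was not tested. No paired analysis was possible because each group had 1 library. Most peaks rest on 5 to 8 fragments, so absence of a peak from a list is not absence of DNA.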
